A study of Mus musculus with 12 samples.

Results

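The insulin-like growth factor (IGF) axis was followed through 10 genes, chosen by their symbols. They were the ligand genes Igf1 and Igf2, the receptor genes Igf1r and Igf2r, and the binding protein genes Igfbp2, Igfbp3, Igfbp4, Igfbp5, Igfbp6 and Igfbp7. These are 10 of the 52636 genes listed for each cell type. The rule that picks them uses symbols, but it was set with earlier results of these data known. With Klf4 silencing, transcripts of Igfbp3, Igfbp4, Igfbp5 and Igfbp6 fell in both airway smooth muscle cells (SMCs) and lung PDGFR-β+ cells, Igfbp2 fell in PDGFR-β+ cells, and Igf1 rose in SMCs. The summed level of Igfbp2 to Igfbp6 dropped to 35.9% of the control mean in SMCs and to 34.6% in PDGFR-β+ cells. Igfbp7 is not in that sum, although by control mean it was the highest member in PDGFR-β+ cells and next to Igfbp4 in SMCs. It went to 125% of its control mean in SMCs and to 83.1% in PDGFR-β+ cells.

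IGF1 and IGF2 are secreted peptides that activate IGF1R, a receptor tyrosine kinase that signals through the IRS adaptors to PI3 kinase and AKT and drives growth and survival. IGF2R, the cation-independent mannose 6-phosphate receptor, takes up IGF2 and delivers it to lysosomes without such signalling. The binding proteins hold the ligands outside the cell, extend their life in fluid, and either block or present them to the receptor, and proteases release the ligands again. In the lung, mesenchymal cells are a known source of both ligands and binding proteins.

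The study compared the transcriptomes of both cell types after transfection with scrambled (Scr) RNA or with siRNA against Klf4 (siKlf4) by bulk RNA-seq, to find genes that depend on the transcription factor KLF4 in each. There were 12 libraries, 3 in each of 4 groups. The SMCs were purchased murine tracheal smooth muscle cells from CellBiologics of the C57BL/6 strain, with no age given. The PDGFR-β+ cells came from lungs of C57BL/6 mice at 12 weeks of age. The study's methods describe them as FACS-isolated, cultured Zs+ cells from tamoxifen-induced mice in which Pdgfrb-CreERT2 switches on a ROSA26R(Zs/+) reporter, while the labels give the genotype as WT. In both cell types the Scr groups were labelled WT and the siKlf4 groups Klf4 KD, and all cells were cultured and transfected. Values are TPM (transcript levels scaled to the same total in every library), which compare genes per unit length and within a library; they do not give the number of reads behind each library. For SMCs, the column names leave 1 library of each group without a replicate number, called unnumbered here. The values of each group are given in the order unnumbered, 2, 3 for SMCs and 1, 2, 3 for PDGFR-β+ cells.

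Klf4, the silenced gene, fell from 93.6 ± 3.57 to 20.5 ± 5.31 TPM in SMCs and from 141 ± 6.16 to 13.0 ± 0.782 TPM in PDGFR-β+ cells (SD, n = 3). The limma adjusted p was 0.000752 and 3.32e-06, and no siKlf4 library reached a Scr library. The smooth muscle markers (Acta2, Myh11, Tagln, Cnn1, Myocd, Des and Smtn) summed to 1445 to 2238 TPM in the SMC Scr libraries and to 5496 to 6350 TPM in the PDGFR-β+ Scr libraries. The PDGFR-β+ mesenchyme list (Pdgfrb, Pdgfra, Col1a1, Dcn, Cspg4, Rgs5 and Tcf21) summed to 1942 to 2306 and 2447 to 2863 TPM. Both sums were higher in PDGFR-β+ Scr cells without overlap, for smooth muscle against the label. Mean Acta2, for example, was 1373 TPM in SMCs and 4369 TPM in PDGFR-β+ cells. Within the mesenchyme list Col1a1 was the largest part, with Scr means of 1108 TPM in SMCs and 1937 TPM in PDGFR-β+ cells. Pdgfrb, Cspg4 and Rgs5 were also higher in PDGFR-β+ cells on average. Pdgfra (417 against 169 TPM), Dcn (409 against 71.2 TPM) and Tcf21 (15.4 against 1.10 TPM) were higher in SMCs, against the label. Myocd stayed at or below 0.213 TPM in all 12 libraries. Of the other cell types, the epithelial list of 6 genes summed to at most 1.03 TPM in any library. The endothelial list of 5 summed to at most 3.73 TPM in SMCs and 17.2 TPM in PDGFR-β+ cells, where Kdr made up most of it. The macrophage list of 6 genes summed to 1.23 to 3.80 TPM in SMCs and to 10.2 to 22.8 TPM in PDGFR-β+ cells. There Lyz2 made up most of it, and Ptprc, Adgre1, C1qa and Itgam were at or below 0.266 TPM. Csf1r, also on that list, had a mean of 2.28 TPM with Scr and 0.775 TPM with siKlf4 in PDGFR-β+ cells. Its groups did not overlap and it was called lower (log2 fold change -0.87, adjusted p 0.0138). The smooth muscle sum with siKlf4 was 3345 to 4093 TPM in SMCs, above Scr, and 4621 to 4915 TPM, below Scr, in PDGFR-β+ cells. Acta2 and Tagln made up most of that sum; in PDGFR-β+ cells Myh11 (0.66, adjusted p 0.00216) and Smtn (0.31, adjusted p 0.0415) were called higher, and in SMCs Des had a log2 fold change of -0.36 (adjusted p 0.0884). The mesenchyme sum with siKlf4 was 1775 to 2048 TPM in SMCs, overlapping Scr, and 1628 to 2199 TPM, below Scr, in PDGFR-β+ cells. In PDGFR-β+ cells Cspg4 (-1.97, adjusted p 0.000337), Col1a1 (-0.63, adjusted p 0.00816) and Pdgfrb (-0.41, adjusted p 0.0218) were called lower. In SMCs Tcf21 (-1.28, adjusted p 0.0124) and Cspg4 (-0.53, adjusted p 0.0311) were called lower. In each cell type the rest of that list was not called. The macrophage sum was lower in both cell types (1.23 to 1.83 and 10.2 to 14.6 TPM). The endothelial sum in SMCs was 0.782 to 1.76 TPM with Scr and 3.28 to 3.73 TPM with siKlf4. Kdr was called higher there (1.22, adjusted p 0.00234). In PDGFR-β+ cells the endothelial sum was 13.9 to 17.2 TPM with Scr and 12.0 to 13.1 TPM with siKlf4, and Kdr was not called (-0.27, adjusted p 0.0715). The part of these shifts in the results for the IGF axis was not tested. In bulk RNA fewer cells of a type and less RNA per cell cannot be told apart.

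Upstream sequences are shown for Igfbp3, Igfbp4, Igfbp5 and Igfbp6 because these 4 members fell in both cell types. Each run is the 250 bases before the gene's RefSeq start on GRCm38.p6, read 5′ to 3′ on the gene's own strand. It covers chr11:7213924-7214173 (minus strand) for Igfbp3, chr11:99040994-99041243 (plus) for Igfbp4, chr1:72874866-72875115 (minus) for Igfbp5 and chr15:102143936-102144185 (plus) for Igfbp6. Capitals mark CACCC, or GGGTG where it lies on the other strand, the core of the CACCC box that KLF proteins are known to bind. The GC box GGGCGG, searched on both strands, which shares letters with it where both overlap, was marked in the same way and is absent from these 4 windows.
Igfbp3: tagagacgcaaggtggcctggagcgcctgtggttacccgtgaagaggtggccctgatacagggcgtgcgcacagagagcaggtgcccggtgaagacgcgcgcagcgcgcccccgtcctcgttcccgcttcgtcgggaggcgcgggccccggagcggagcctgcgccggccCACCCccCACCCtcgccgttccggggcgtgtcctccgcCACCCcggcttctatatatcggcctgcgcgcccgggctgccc
Igfbp4: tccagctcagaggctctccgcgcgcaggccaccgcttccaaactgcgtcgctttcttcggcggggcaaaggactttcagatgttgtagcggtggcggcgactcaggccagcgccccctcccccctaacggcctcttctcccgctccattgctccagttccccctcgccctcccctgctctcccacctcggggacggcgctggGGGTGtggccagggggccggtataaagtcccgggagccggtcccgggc
Igfbp5: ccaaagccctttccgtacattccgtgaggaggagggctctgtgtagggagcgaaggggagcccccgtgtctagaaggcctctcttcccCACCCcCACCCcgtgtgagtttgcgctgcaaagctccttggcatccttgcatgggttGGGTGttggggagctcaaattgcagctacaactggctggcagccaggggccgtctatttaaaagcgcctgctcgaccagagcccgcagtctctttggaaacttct
Igfbp6: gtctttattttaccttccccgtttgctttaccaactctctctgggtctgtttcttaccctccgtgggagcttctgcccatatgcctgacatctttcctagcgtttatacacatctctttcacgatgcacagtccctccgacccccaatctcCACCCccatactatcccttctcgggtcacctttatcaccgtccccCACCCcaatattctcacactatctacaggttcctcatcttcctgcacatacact
CACCC occurs 3 times in the Igfbp3 and Igfbp5 windows, 2 times in that of Igfbp6 and once in that of Igfbp4. Of all 32851 RefSeq windows of this length, 52.0% hold CACCC at least once and 21.1% at least 2 times, and 32.7% hold the GC box. Over all 14 windows of the 10 members, 10 hold CACCC and 6 hold the GC box. The Igf1 window holds neither, and that of Igfbp7 holds 4 GC boxes and no CACCC. That of Igf1r holds 2 GC boxes and no CACCC. The Igf2r window, whose gene did not fall, holds CACCC 2 times and the GC box 3 times. Of the Igf2 windows, number 3 and number 4 hold CACCC 4 times each. The annotation used for positions (GENCODE M21) puts the start of Igfbp3 and Igfbp4 at the same base, that of Igfbp5 19 bases further upstream and that of Igfbp6 176 bases downstream. A match describes letters in a window and is not a bound site.

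All 10 members are protein-coding genes, and some lie close together. On GRCm38, Igfbp2 (chr1:72824503-72852474, plus strand) and Igfbp5 (chr1:72857932-72874884, minus strand) face each other tail to tail with 5457 bases and no annotated gene between them. Igfbp3 (chr11:7206086-7213923, minus strand) is the neighbour of Igfbp1 (chr11:7197782-7202546, plus strand) at a distance of 3539 bases, and Igfbp4 (chr11:99041244-99054392, plus strand) lies elsewhere on the same chromosome. Igfbp6 lies at chr15:102144362-102149511 (plus strand) and Igfbp7 at chr5:77349240-77408041 (minus strand), where an exon overlaps 1 of Polr2b on the opposite strand. The ligand genes lie at chr10:87858265-87937042 (Igf1, plus strand) and chr7:142650766-142666816 (Igf2, minus strand), the latter 72622 bases from the imprinted non-coding RNA gene H19. The receptor genes lie at chr7:67952827-68233668 (Igf1r, plus strand) and chr17:12682406-12769664 (Igf2r, minus strand), and the antisense RNA Airn overlaps Igf2r on the opposite strand without sharing exon bases. The libraries kept strand, but whether the counting used it is not given in the sources used here, so Igf2 against the gene Gm49394 on its own strand and against Igf2os (at most 0.501 TPM), Igf1 against Igf1os (at most 0.215 TPM) and Igfbp7 against Polr2b (46.2 to 65.3 TPM) may share reads.

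In the Scr libraries, the axis was weighted towards its binding proteins in both cell types. Igfbp4 and Igfbp7 led in SMCs, with 977 ± 199 and 891 ± 73.4 TPM, and their ranges overlapped. Igfbp4 stood at the 99.1 to 99.5 percentile of detected genes there. Igfbp6 (201 ± 44.3 TPM) and Igfbp3 (157 ± 16.9 TPM) followed, again with overlapping ranges. Igf2r, Igfbp5 and Igf1r lay between 81.6 and 92.6 TPM on average and Igf2 at 59.0 ± 50.6 TPM, each overlapping the next. Igfbp2 (15.6 ± 1.86 TPM) and Igf1 (12.7 ± 1.29 TPM) came last and also overlapped.

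Igfbp7 led in PDGFR-β+ cells as well, with 1010 ± 54.1 TPM, clear of Igf2r (188 ± 6.35 TPM) and Igfbp6 (152 ± 4.47 TPM), which did not overlap each other. Igf1r, Igfbp2 and Igfbp3 formed a middle group with means of 58.9 to 72.7 TPM and overlapping neighbours. Igf1 (21.0 ± 5.80 TPM), Igfbp4 (11.9 ± 1.03 TPM), Igfbp5 (7.40 ± 1.29 TPM) and Igf2 (0.675 ± 0.294 TPM) followed with no overlap. Igfbp4, which led in SMCs, thus stood at the 59.0 to 62.0 percentile here, and Igf2 at the 26.5 to 36.6 percentile. No test was made between the cell types, since cell type, culture and table cannot be told apart.

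**Figure D1:**
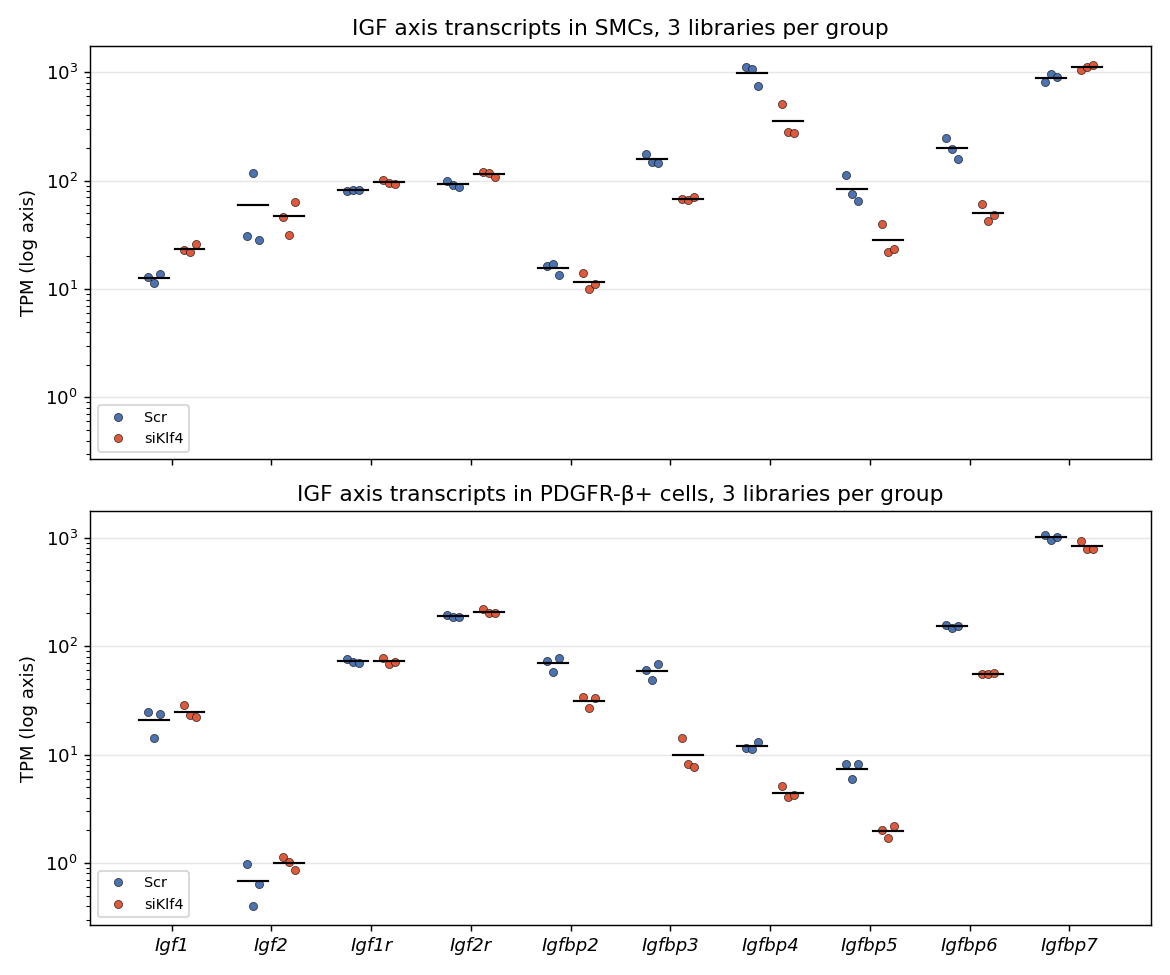
TPM of the 10 IGF axis genes (log axis) in each SMC library (top) and PDGFR-β+ library (bottom), Scr in blue and siKlf4 in red, with a bar at the mean of 3 libraries. The siKlf4 points of Igfbp3 to Igfbp6 lie below all Scr points in both cell types, while the points of Igf1r and Igf2r lie close together.

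Called here means an adjusted p under 0.05 in limma's moderated test on log2(TPM + 1), with Benjamini-Hochberg adjustment over all genes whose mean reached 1 TPM. The log2 fold changes are siKlf4 minus Scr on that scale, which understates the change of low genes. All 10 members were tested in SMCs and 8 were called, 4 higher and 4 lower, where 28.5% of the 13709 genes tested were called (15.6% higher and 12.9% lower). In PDGFR-β+ cells 9 were tested and 6 were called, all lower, where 40.6% of 13694 genes were called, 25.3% higher and 15.3% lower. Igf2 had a mean below 1 TPM and was not tested. The groups did not overlap for 8 of 10 members in SMCs, against 47.1% of all genes tested, and for 7 of 9 in PDGFR-β+ cells, against 53.8%. Since the members were chosen with earlier results of these data known, these shares are descriptions. A two-sided exact permutation test of 3 libraries against 3 cannot go below a p of 0.1, the value of each member whose groups do not overlap. The median log2 fold change over the members was -0.22 in SMCs, against 0.02 over all genes, and -1.11 in PDGFR-β+ cells, against 0.10 over all genes. The all-gene median of 0.10 moved to -0.003 when the libraries were scaled by median ratios. The split of calls in PDGFR-β+ cells then went from 3461 higher and 2098 lower to 2639 and 2977, with 6 members again called lower.

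**Figure D2:**
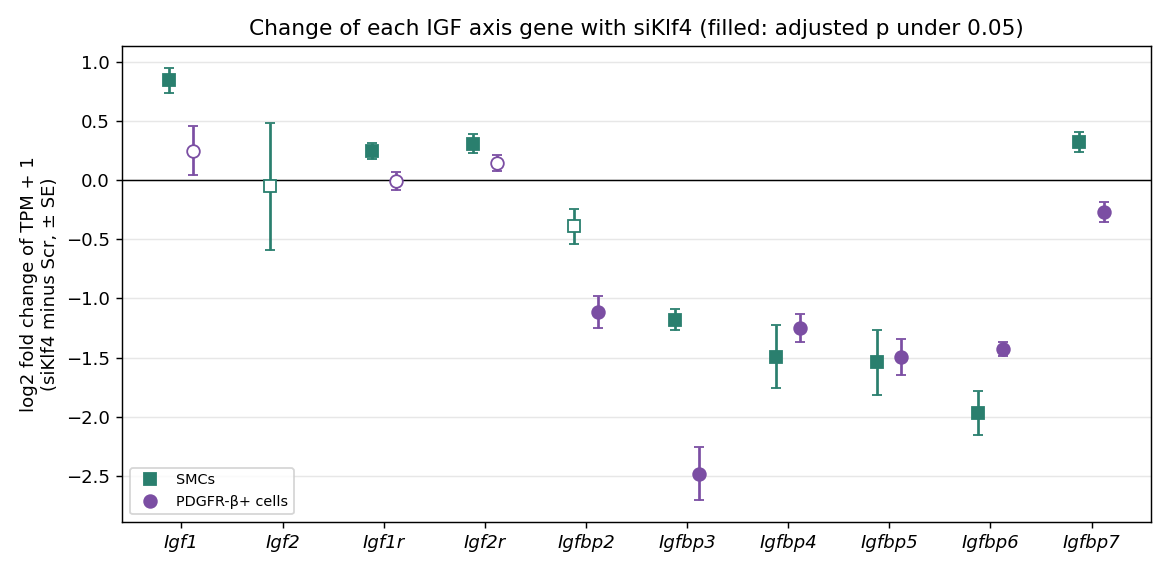
log2 fold change of TPM + 1 (siKlf4 minus Scr) of each IGF axis gene, with its standard error, in SMCs (green squares) and PDGFR-β+ cells (purple circles). Filled symbols have an adjusted p under 0.05; Igfbp3 to Igfbp6 lie below -1 in both cell types, Igf2 has the widest error, and Igf2 was not tested in PDGFR-β+ cells.

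Of the ligands, Igf1 rose in SMCs and its change in PDGFR-β+ cells did not pass the test. In SMCs Igf1 was at 12.9, 11.3 and 13.9 TPM in the Scr libraries and at 22.8, 21.9 and 25.8 TPM in the siKlf4 libraries. All siKlf4 libraries lay above all Scr libraries, and the mean was 1.85 times the Scr mean (log2 fold change 0.84, SE 0.11, adjusted p 0.0028). In PDGFR-β+ cells Igf1 was at 24.9, 14.3 and 23.8 TPM with Scr and at 28.6, 23.1 and 22.0 TPM with siKlf4. The groups overlapped, with Scr library 2 the lowest (log2 fold change 0.25, SE 0.21, adjusted p 0.376). The changes differed between the cell types by 0.60 (SE 0.25, adjusted p 0.0932), which did not pass the test. Without PDGFR-β+ Scr library 2 the difference was 0.84 with an adjusted p of 0.0044.

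Igf2, the fetal growth factor, varied widely between replicate SMC libraries, with an SD of 50.6 TPM on a Scr mean of 59.0 TPM. It was at 31.0, 117 and 28.5 TPM with Scr and at 46.3, 31.6 and 64.1 TPM with siKlf4. Scr library 2 alone stood above every other library, and the groups overlapped (log2 fold change -0.05, SE 0.54, adjusted p 0.952). Without that library the log2 fold change was 0.60 (adjusted p 0.178). H19, the neighbouring imprinted RNA, was at 100.2, 68.6 and 30.4 TPM with Scr and at 40.5, 24.7 and 12.1 TPM with siKlf4 in SMCs. The Scr library richest in Igf2 was not the library richest in H19. The log2 fold change of H19, -1.33 (SE 0.52, adjusted p 0.0996), did not pass the test, but did in 4 of 16 alternatives (adjusted p down to 0.0124), among them the fit without Scr library 3. In PDGFR-β+ cells both were low. Igf2 was at 0.986, 0.402 and 0.636 TPM with Scr and at 1.14, 1.02 and 0.860 TPM with siKlf4, and H19 was at 1.04 to 3.10 TPM over the 6 libraries (adjusted p 0.192).

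**Figure D3:**
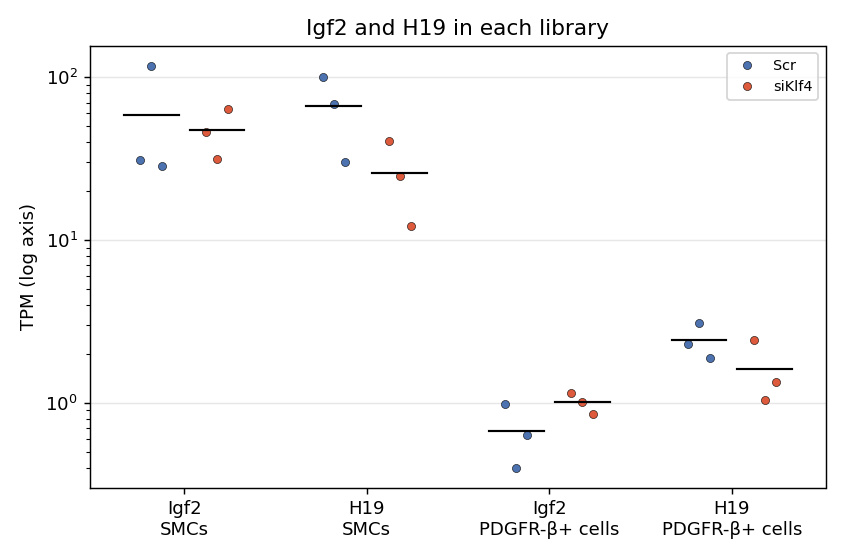
TPM (log axis) of the ligand gene Igf2 and the neighbouring non-coding RNA H19 in each of the 12 libraries, Scr in blue and siKlf4 in red, with a bar at the mean of 3 libraries. In SMCs 1 Scr library holds 117 TPM of Igf2 while the others hold 28.5 to 64.1 TPM, and in PDGFR-β+ cells no library exceeds 1.14 TPM.

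The receptors changed little. Igf1r, the signalling receptor, was at 79.8, 82.3 and 82.7 TPM with Scr and at 102.4, 95.0 and 93.3 TPM with siKlf4 in SMCs. Its groups did not overlap, but the rise of 0.24 (SE 0.07, adjusted p 0.031) was lost when any single library was left out (adjusted p 0.0538 to 0.0837). It was also lost with quantile normalization (0.0601), without the trend (0.057) and with the replicate block (0.0904). In PDGFR-β+ cells it was at 75.7, 72.1 and 70.3 TPM with Scr and at 77.0, 69.0 and 71.0 TPM with siKlf4 (log2 fold change -0.01, SE 0.07, adjusted p 0.939). Between the cell types the change differed by 0.25 (SE 0.09), which had an adjusted p of 0.0529. That difference passed the test with a minimum of 5 TPM (adjusted p 0.0497), with median-ratio scaling (0.35, adjusted p 0.00799), with quantile normalization (0.25, adjusted p 0.0268) and without PDGFR-β+ siKlf4 library 1 (0.30, adjusted p 0.0328). Insr, the insulin receptor, which can pair with IGF1R, was at 30.4 to 37.0 TPM in SMCs (log2 fold change 0.01, adjusted p 0.954) and at 18.6 to 23.9 TPM in PDGFR-β+ cells (0.17, adjusted p 0.216).

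Igf2r, the clearance receptor, was at 99.2, 91.1 and 87.5 TPM with Scr and at 119.8, 117 and 107 TPM with siKlf4 in SMCs, with no overlap (log2 fold change 0.31, SE 0.08, adjusted p 0.025). The call was lost without Scr library 2 (adjusted p 0.0783), Scr library 3 (0.0781), the unnumbered siKlf4 library (0.0664) or siKlf4 library 2 (0.0884). In PDGFR-β+ cells it was at 195, 185 and 184 TPM with Scr and at 221, 202 and 201 TPM with siKlf4. The groups did not overlap either, but the log2 fold change of 0.14 (SE 0.07, adjusted p 0.126) did not pass. The antisense RNA Airn was at 14.8 to 17.1 TPM in SMCs and at 6.72 to 13.6 TPM in PDGFR-β+ cells, with overlapping groups in each (adjusted p 0.893 and 0.203). The ratio of Igf2r to Igf1r was 1.06 to 1.24 in the SMC Scr libraries and 2.57 to 2.61 in the PDGFR-β+ Scr libraries.

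Igfbp6, whose product prefers IGF2 over IGF1, had the largest fold change of the members in SMCs. It was at 247, 197 and 158 TPM with Scr and at 60.5, 42.3 and 48.0 TPM with siKlf4 there. Of the Scr mean, 25.0% was left (log2 fold change -1.97, SE 0.19, adjusted p 0.00117). Of 1774 genes called lower in SMCs it was the number 21 by size. In PDGFR-β+ cells it was at 156, 147 and 152 TPM with Scr and at 55.6, 55.7 and 56.1 TPM with siKlf4, and 36.8% was left (log2 fold change -1.43, SE 0.06, adjusted p 8.81e-06). The falls differed by -0.54 (SE 0.21, adjusted p 0.0676), which did not pass the test. It passed without SMC Scr library 3 (-0.70, adjusted p 0.0141), without the unnumbered SMC siKlf4 library (-0.68, adjusted p 0.0217) and without both unnumbered libraries (-0.52, adjusted p 0.017).

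Igfbp3, the main carrier of IGFs in blood and a binding protein known to act on cells directly, fell in both cell types and most in PDGFR-β+ cells. There it was at 60.5, 48.2 and 67.8 TPM with Scr and at 14.1, 8.18 and 7.70 TPM with siKlf4, and 17.0% was left (log2 fold change -2.48, SE 0.22, adjusted p 0.000185), the number 26 by size of 2098 genes called lower. In SMCs it was at 176, 149 and 145 TPM with Scr and at 67.5, 66.9 and 70.6 TPM with siKlf4, and 43.6% was left (log2 fold change -1.18, SE 0.09, adjusted p 0.000744). No siKlf4 library reached the lowest Scr library in either cell type. Igfbp1, the neighbouring gene and a hepatic binding protein, was listed at 0 in all 12 libraries.

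Igfbp4, an inhibitor of IGF action that the protease PAPP-A cleaves, carried most of the loss in SMCs by level. It was at 1108, 1075 and 747 TPM with Scr and at 513, 281 and 276 TPM with siKlf4, and 36.5% was left (log2 fold change -1.49, SE 0.26, adjusted p 0.00759). In PDGFR-β+ cells, at a far lower level, it was at 11.6, 11.1 and 13.1 TPM with Scr and at 5.12, 4.06 and 4.19 TPM with siKlf4, and 37.4% was left (log2 fold change -1.25, SE 0.12, adjusted p 0.000243). The groups did not overlap in either, and the difference between the falls was -0.25 (SE 0.31, adjusted p 0.579). Pappa, which encodes PAPP-A, was at 109.6, 139 and 158 TPM with Scr and at 176, 192 and 198 TPM with siKlf4 in SMCs. Its log2 fold change of 0.49 (SE 0.13, adjusted p 0.0322) was a call lost in 6 of 16 alternatives (adjusted p up to 0.0979). In PDGFR-β+ cells Pappa was at 87.4 to 123 TPM and was not called (adjusted p 0.227).

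Igfbp5, a binding protein that attaches to extracellular matrix, fell alongside. It was at 113, 75.0 and 65.0 TPM with Scr and at 40.1, 22.1 and 23.4 TPM with siKlf4 in SMCs (33.9% left, log2 fold change -1.54, SE 0.27, adjusted p 0.00759). In PDGFR-β+ cells it was at 8.18, 5.91 and 8.10 TPM with Scr and at 2.00, 1.71 and 2.18 TPM with siKlf4 (26.5% left, log2 fold change -1.49, SE 0.15, adjusted p 0.000321). Neither pair of groups overlapped, and the difference of -0.05 (SE 0.33, adjusted p 0.930) changed sign with the pseudocount and scaling.

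Igfbp2, the tail-to-tail neighbour of Igfbp5, fell in PDGFR-β+ cells, where it was at 72.9, 57.7 and 77.9 TPM with Scr and at 33.8, 27.1 and 33.5 TPM with siKlf4. The groups did not overlap (45.3% left, log2 fold change -1.11, SE 0.14, adjusted p 0.000732). In SMCs it was at 16.4, 16.8 and 13.4 TPM with Scr and at 13.9, 10.0 and 11.1 TPM with siKlf4. The unnumbered siKlf4 library lay above the lowest Scr library, and the log2 fold change of -0.39 (SE 0.14, adjusted p 0.083) did not pass. Without that library it was -0.52 with an adjusted p of 0.0384, and with a term for how the SMC columns are named it was also called (adjusted p 0.0395). The changes differed between the cell types by 0.72 (SE 0.21, adjusted p 0.0207), a call lost without PDGFR-β+ siKlf4 library 2 (0.62, adjusted p 0.0514) or without both unnumbered libraries (0.64, adjusted p 0.051).

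Igfbp7, a low-affinity IGF binder secreted by mesenchyme and endothelium, was the most abundant member in PDGFR-β+ cells and moved in opposite directions. In SMCs it was at 813, 958 and 904 TPM with Scr and at 1040.0, 1126 and 1172 TPM with siKlf4 (log2 fold change 0.32, SE 0.08, adjusted p 0.0282). In PDGFR-β+ cells it was at 1057, 951 and 1022 TPM with Scr and at 934, 789 and 794 TPM with siKlf4 (log2 fold change -0.27, SE 0.09, adjusted p 0.0424). The groups did not overlap in either cell type, with the siKlf4 libraries on top in SMCs and at the bottom in PDGFR-β+ cells. The opposite changes differed by 0.59 (SE 0.12, adjusted p 0.0038), and this difference passed the test in all 20 alternatives (adjusted p at most 0.0121). Each change alone was less stable. The rise in SMCs was lost without Scr library 3 (adjusted p 0.0632), siKlf4 library 2 (0.0911) or siKlf4 library 3 (0.101). The fall in PDGFR-β+ cells was lost without Scr library 1 (0.128), Scr library 3 (0.0915), siKlf4 library 2 (0.139) or siKlf4 library 3 (0.138). With no filter on low values the adjusted p was 0.0831 in SMCs and 0.115 in PDGFR-β+ cells, without the trend 0.0503 and 0.0699, and with quantile normalization 0.0577 in PDGFR-β+ cells.

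Added up, Igfbp2 to Igfbp6 stood at 1660, 1513 and 1129 TPM in the SMC Scr libraries, and at 695, 422 and 429 TPM in the SMC siKlf4 libraries. In PDGFR-β+ cells the sum was 309, 270.1 and 319 TPM under Scr, against 111, 96.8 and 104 TPM under siKlf4. No siKlf4 library came near a Scr library in either cell type, though the SMC Scr libraries were further apart (SD 274 TPM) than those of PDGFR-β+ cells (SD 25.8 TPM). The make-up differed. Igfbp4 was 68.0 ± 2.65% of the sum in SMC Scr libraries and 3.99 ± 0.214% in PDGFR-β+ Scr libraries, where Igfbp6 was 50.9 ± 3.44%. With siKlf4 the share of Igfbp4 in SMCs was 68.2 ± 4.96% and that of Igfbp6 in PDGFR-β+ cells 54.0 ± 3.64%, while Igfbp3 went from 19.6 ± 1.71% to 9.54 ± 2.82% in PDGFR-β+ cells. Per 100 TPM of these binding proteins, Igf1 was at 0.746 to 1.23 TPM with Scr against 3.28 to 6.01 TPM with siKlf4 in SMCs. It was at 5.30 to 8.04 and 21.2 to 25.9 TPM in PDGFR-β+ cells. With Igf1 and Igf2 added together, the values in SMCs were 2.64 to 8.50 TPM with Scr and 9.94 to 20.95 TPM with siKlf4. In PDGFR-β+ cells they were 5.45 to 8.36 and 22.1 to 26.9 TPM. These are ratios of transcripts and not of secreted proteins.

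**Figure D4:**
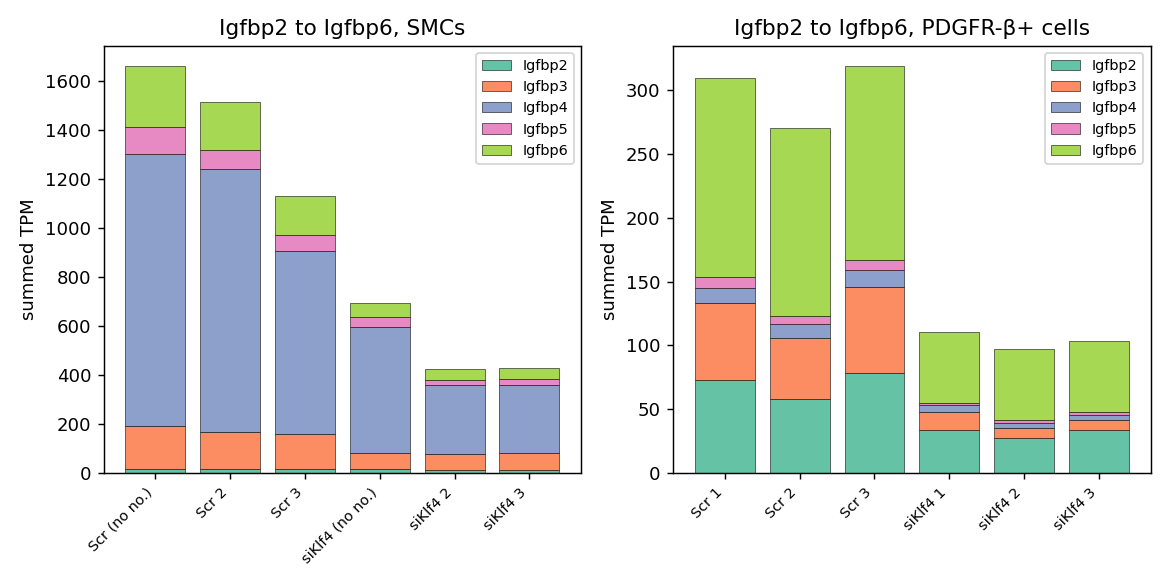
Stacked bars of the TPM of Igfbp2 to Igfbp6 in each library, SMCs on the left and PDGFR-β+ cells on the right on separate linear axes; "(no no.)" marks the unnumbered libraries. The siKlf4 bars reach 422 to 695 TPM against 1129 to 1660 TPM with Scr in SMCs, and 96.8 to 111 against 270.1 to 319 TPM in PDGFR-β+ cells.

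Tested directly, the siKlf4 effect differed between the cell types for 3 of 9 members, Igfbp2, Igfbp3 and Igfbp7. That share, 33.3%, was at the background, since 33.0% of 13032 genes tested differed, 14.5% with the higher value in SMCs and 18.5% with the higher value in PDGFR-β+ cells. In all 3 the change was the more negative in PDGFR-β+ cells. Klf4 itself also fell further there, with 9.16% of its Scr mean left against 21.9% in SMCs. That difference was called too (1.19, SE 0.19, adjusted p 0.00069). Its part in the differences of the members was not tested. For Igfbp3 the difference was 1.30 (SE 0.26, adjusted p 0.00317), and it passed the test without each library in turn. With median-ratio scaling 5 members differed, Igf1r and Igf2r being added, and the split of all calls turned from 1886 higher and 2411 lower to 2510 and 1913.

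Around the ligands and binding proteins, 11 extracellular regulators were listed, 7 of which were expressed highly enough to be tested. In SMCs 2 rose and 3 fell, where 15.6% of all genes tested rose and 12.9% fell. In PDGFR-β+ cells 1 rose and 4 fell, where 25.3% rose and 15.3% fell. The median log2 fold changes were 0.10 and -0.30, against 0.02 and 0.10 over all genes. Htra3, a secreted serine protease with an IGFBP-like domain, fell from 61.8 to 29.1 TPM on average in SMCs (log2 fold change -1.05, SE 0.16, adjusted p 0.00463) and from 28.5 to 10.6 TPM in PDGFR-β+ cells (-1.37, SE 0.16, adjusted p 0.000568). Adam12, a metalloprotease that cleaves Igfbp3 and Igfbp5, went in opposite directions. It went from 25.4, 27.2 and 27.4 to 43.4, 46.1 and 45.4 TPM in SMCs (0.73, adjusted p 0.00127). It went from 48.6, 43.5 and 48.3 to 22.3, 17.6 and 19.8 TPM in PDGFR-β+ cells (-1.20, adjusted p 0.000138). Pappa2, a relative of Pappa, rose in PDGFR-β+ cells from 0.789 to 2.41 TPM (0.93, adjusted p 0.00179). It was at 1.73 to 3.28 TPM in SMCs with no call (adjusted p 0.713). Htra1, a protease related to Htra3, fell in PDGFR-β+ cells from 30.3 to 21.0 TPM (-0.51, adjusted p 0.00542). Its fall in SMCs from 32.3 to 21.3 TPM (-0.57, adjusted p 0.0252) was lost in 4 of 16 alternatives (adjusted p up to 0.0829). Igfals, which encodes the acid-labile subunit of the circulating complex, was below the filter in both cell types, and Adam28 was listed at 0 in all libraries.

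Below the receptor, 26 signalling genes were listed and 25 tested, of which 4 rose and 3 fell in SMCs and 8 rose and 4 fell in PDGFR-β+ cells (median log2 fold changes 0.04 and 0.15, against 0.02 and 0.10 over all genes). The called share was 28.0% in SMCs and 48.0% in PDGFR-β+ cells, against 28.5% and 40.6% of all genes, so that in SMCs it was at the background. Irs1, the docking protein that IGF1R phosphorylates, rose in both. It went from 12.2, 12.4 and 12.9 to 26.3, 22.2 and 21.8 TPM in SMCs (log2 fold change 0.85, SE 0.10, adjusted p 0.00198). It went from 21.1, 21.6 and 20.0 to 67.6, 64.2 and 66.1 TPM in PDGFR-β+ cells (1.61, SE 0.07, adjusted p 9.38e-06). The groups were far apart in both, and the rise was larger in PDGFR-β+ cells by 0.76 (adjusted p 0.00043). In PDGFR-β+ cells other genes of the list moved both ways. Irs2, another docking protein, rose from 13.1 to 28.0 TPM (1.04, adjusted p 0.000109). Pik3r1, the regulatory subunit of PI3 kinase, rose from 58.6 to 104 TPM (0.82, adjusted p 0.000856), and the adaptor Gab1 rose from 12.8 to 19.2 TPM (0.55, adjusted p 0.00256). None of these passed the test in SMCs, where their log2 fold changes were 0.10, -0.09 and -0.22. For each the difference between the cell types was called. Chosen after their values were seen, Pik3r2, another regulatory subunit (-0.39, adjusted p 0.00573), and Pdpk1, the kinase that activates AKT (-0.32, adjusted p 0.0215), fell in PDGFR-β+ cells, and Akt2 had -0.69 (adjusted p 0.0899).

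Shc1, the adaptor that links the receptor to RAS, was at 241, 254 and 236 TPM with Scr and at 299 TPM in each siKlf4 library in SMCs (log2 fold change 0.30, adjusted p 0.0108). It fell from 189, 179.8 and 180.0 to 104, 97.8 and 97.9 TPM in PDGFR-β+ cells (-0.87, adjusted p 7.37e-05). Grb14, an adaptor that inhibits the insulin and IGF receptors, went the other way. It went from 122 to 78.8 TPM in SMCs (-0.63, adjusted p 0.00275) and from 35.9 to 50.1 TPM in PDGFR-β+ cells (0.48, adjusted p 0.0205), the second call lost with median-ratio scaling and without siKlf4 library 1. Pik3cb, a catalytic subunit of PI3 kinase, rose in SMCs from 6.41 to 10.1 TPM (0.57, adjusted p 0.0147), a call lost in 2 of 16 alternatives. Foxo1, the transcription factor that AKT holds out of the nucleus, fell in SMCs from 17.6 to 11.6 TPM (-0.57, adjusted p 0.0118). Their log2 fold changes in PDGFR-β+ cells, 0.11 and 0.15, were not called.

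**Figure D5:**
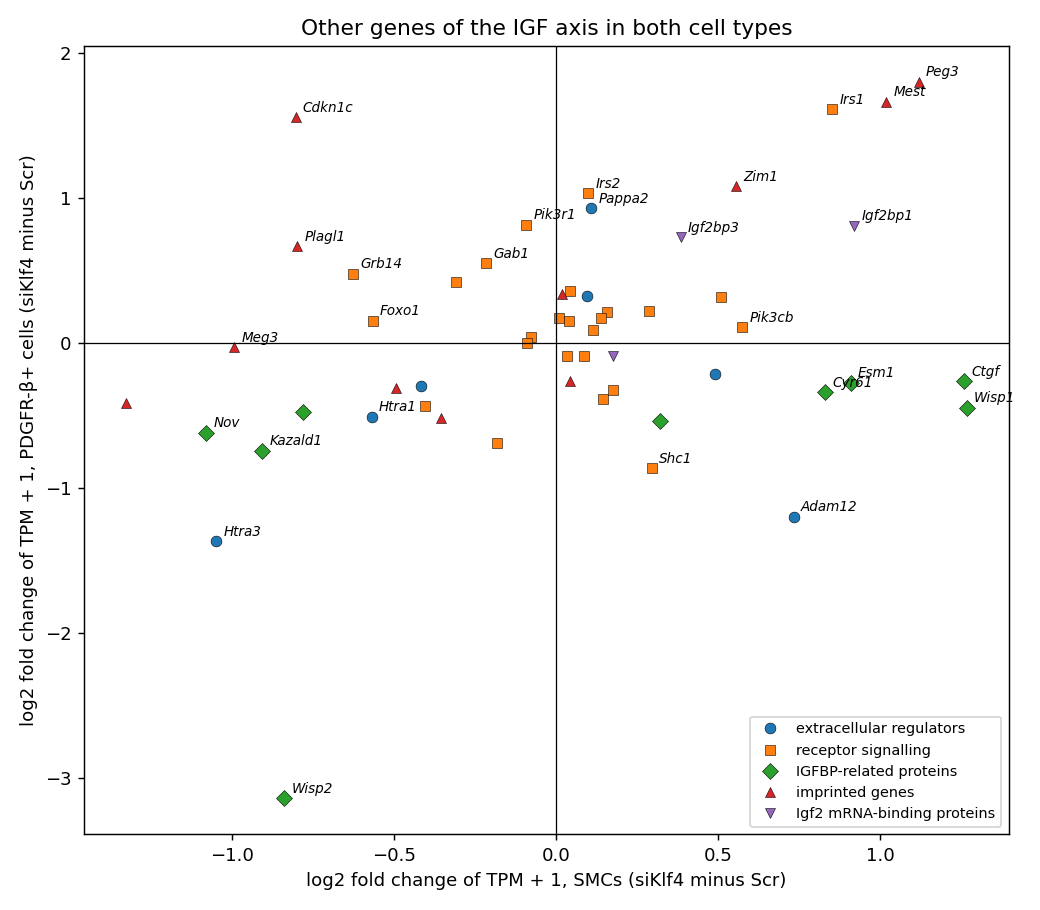
log2 fold change (siKlf4 minus Scr) of 55 further genes of the IGF axis tested in both cell types, SMCs on the horizontal and PDGFR-β+ cells on the vertical axis, by list (genes in 2 lists are drawn with the first); called genes whose change reached 0.5 in size are labelled, up to 8 per list. Irs1, Peg3 and Mest lie high in both cell types, Wisp2 and Htra3 low in both, and Adam12, Shc1, Ctgf and Cyr61 to the right and below 0.

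A group of 13 proteins shares the IGFBP domain without being a classical binding protein. Of the 11 tested, 5 rose and 6 fell in SMCs and none rose and 9 fell in PDGFR-β+ cells (medians -0.57 and -0.51, against 0.02 and 0.10 over all genes). Of all genes, 15.6% rose and 12.9% fell in SMCs and 25.3% rose and 15.3% fell in PDGFR-β+ cells. The CCN genes, whose products are matricellular, parted. Wisp2 fell from 483, 393 and 431 to 70.5, 40.7 and 39.1 TPM in PDGFR-β+ cells (log2 fold change -3.14, SE 0.22, adjusted p 5.48e-05). It also fell from 261 to 141 TPM in SMCs (-0.84, adjusted p 0.0342; lost in 6 of 16 alternatives). Ctgf rose in SMCs from 337, 637 and 689 to 1197, 1274 and 1333 TPM (1.26, SE 0.25, adjusted p 0.0116), with the unnumbered Scr library the lowest. Cyr61 rose there from 366 to 644 TPM (0.83, adjusted p 0.0058). In PDGFR-β+ cells Cyr61 fell from 543 to 429 TPM (-0.34, adjusted p 0.00926). The fall of Ctgf from 1141 to 949 TPM (-0.27, adjusted p 0.0421) was lost in 7 of 14 alternatives. Wisp1 rose in SMCs from 20.0 to 49.4 TPM (1.27, adjusted p 0.0206), a call lost in 3 of 16 alternatives. It fell in PDGFR-β+ cells from 75.9 to 55.2 TPM (-0.45, adjusted p 0.0107; lost in 1 of 14). Nov fell in SMCs from 17.1 to 7.68 TPM (-1.08, adjusted p 0.00312) and overlapped between groups in PDGFR-β+ cells (adjusted p 0.193). Kazald1 fell in both (-0.91, adjusted p 0.00703, and -0.74, adjusted p 0.00569). Esm1 rose in SMCs from 1.88 to 4.60 TPM (0.91, adjusted p 0.0301; lost in 7 of 15 alternatives).

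Of 12 imprinted genes, the class to which Igf2 and Igf2r belong, 3 rose and 3 fell in SMCs and 5 rose and 1 fell in PDGFR-β+ cells (medians -0.22 and 0.19, against 0.02 and 0.10 over all genes). In each cell type 6 of 12 were called, against 28.5% of all genes in SMCs and 40.6% in PDGFR-β+ cells. The paternally expressed Peg3 rose in both. It went from 26.1, 22.1 and 23.1 to 52.8, 56.4 and 48.9 TPM in SMCs (log2 fold change 1.12, SE 0.09, adjusted p 0.000928). It went from 11.2, 13.3 and 10.5 to 42.9, 45.6 and 40.2 TPM in PDGFR-β+ cells (1.80, SE 0.11, adjusted p 2.75e-05). Mest, also paternally expressed, rose from 7.58 to 16.7 TPM in SMCs (1.02, adjusted p 0.0198; lost in 3 of 16 alternatives) and from 1.16 to 5.82 TPM in PDGFR-β+ cells (1.66, adjusted p 0.000167). Zim1 rose from 0.520 to 2.23 TPM in PDGFR-β+ cells (1.08, adjusted p 0.00132), with a call in SMCs (0.55, adjusted p 0.0494) lost in 8 of 15. Cdkn1c, a cell cycle inhibitor, fell from 95.4 to 54.5 TPM in SMCs (-0.80, adjusted p 0.0322), a call lost in 5 of 16 alternatives. It rose from 2.20 to 8.38 TPM in PDGFR-β+ cells (1.56, adjusted p 0.000126). Meg3 fell in SMCs from 241 to 119.8 TPM (-0.99, adjusted p 0.00412). Its log2 fold change in PDGFR-β+ cells was -0.03 (adjusted p 0.833), and the difference was called. Plagl1, a zinc finger factor known to act on imprinted genes, rose in PDGFR-β+ cells from 30.4 to 49.0 TPM (0.67, adjusted p 0.00108). Its means were 43.1 and 23.9 TPM in SMCs (-0.80, adjusted p 0.0572), and it was called there in 6 of 16 alternatives (adjusted p down to 0.0017), among them the fits without Scr library 3 and without the unnumbered siKlf4 library.

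The genes for the Igf2 mRNA-binding proteins, which bind Igf2 and other transcripts, showed 2 of 3 higher in each cell type (medians 0.38 and 0.73), where 15.6% and 25.3% of all genes were higher. Igf2bp1 went from 2.72, 3.65 and 2.88 to 5.77, 7.47 and 6.93 TPM in SMCs (log2 fold change 0.92, SE 0.14, adjusted p 0.00528). It went from 7.66, 8.44 and 6.85 to 13.9, 13.7 and 14.8 TPM in PDGFR-β+ cells (0.81, SE 0.10, adjusted p 0.000849). Igf2bp3 rose in PDGFR-β+ cells from 42.8 to 71.6 TPM (0.73, adjusted p 0.000204). Its call in SMCs (9.12 to 12.2 TPM, 0.38, adjusted p 0.0388) was lost in 8 of 16 alternatives. Over the members and all lists together, 20 of 65 tested genes rose and 17 fell in SMCs and 16 of 64 rose and 22 fell in PDGFR-β+ cells. The share that rose in PDGFR-β+ cells, 25.0%, was at the background of 25.3%, and the share that fell was 34.4% against 15.3%. In SMCs 30.8% rose and 26.2% fell, against 15.6% and 12.9% of all genes. Members and lists were chosen with earlier results known, so these shares are descriptions.

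By pattern over the 12 libraries, after centring log2(TPM + 1) within each cell type, the genes most like Igfbp6 among 13032 were Cyb5r3 (Pearson r 0.992), Adgrd1 (0.988), Dzip1 (0.984), Glul (0.982) and Nipal3 (0.981). Those most like Igfbp3 were Cd248 (0.991), B4galt1 (0.991), Prnp (0.99), Fam102b (0.988) and Mrgprf (0.987). The mean of each was lower with siKlf4 in both cell types. The log2 fold change of Cd248 was -0.62 in SMCs and -1.40 in PDGFR-β+ cells. These correlations are descriptions over points that share libraries and the same step between Scr and siKlf4.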

How the data were processed

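RNA from 12 cultures was sequenced as strand-specific poly(A) libraries. The authors' reads were trimmed and mapped with HISAT2 (mm10, GENCODE annotation), and abundance was estimated with StringTie and ballgown. The deposited values are TPM per gene, 1 table per cell type, with replicates kept apart. The GENCODE release and the strand setting of the counting are not given in the sources used here. Each library summed to 1000000 TPM, so the depth reached is unknown and no counting error can be given; precision rests on 3 libraries per group, from 3 independent experiments per the study's methods. The study's own test used DESeq2 on counts, not used here.

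From the deposited TPM, separate fits for the cell types were made with limma 3.58.1 (R 4.3.3) on log2(TPM + 1), with a mean-variance trend, for genes whose mean reached 1 TPM. The difference between cell types was an interaction term over 12 libraries. All tests were two-sided, and p-values were adjusted by Benjamini-Hochberg across every gene tested. The fitting was tested on simulated data. Groups came from the sample labels; 2 SMC columns carry no replicate number and entered by group only. Alternatives were a pseudocount of 0.1, no filter or 5 TPM, median-ratio and quantile scaling, no trend, a replicate block, 1 fit of 12 libraries, a term for column naming, leaving out each library and leaving out the unnumbered libraries. The members and lists were chosen with earlier results of these data known. The text names all members, Klf4, the genes set beside members, and list genes called in either cell type with groups that do not overlap and a log2 fold change of 0.5 or more in size, at most 8 per list. Positions are from GENCODE M21 on GRCm38 (52403 of 52636 gene IDs found), upstream sequences from RefSeq; 10 of 10 members had a window.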

Additional observations from a re-analysis of the deposited data

Results flagged for a closer look

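For 3 members the effect of siKlf4 differed between SMCs and PDGFR-β+ cells by limma's interaction term, 3 of 9 tested, a share no larger than that of all genes (33.0% of 13032). The difference of log2 fold changes, SMCs minus PDGFR-β+ cells, was 1.30 for Igfbp3 (adjusted p 0.00317), 0.72 for Igfbp2 (0.0207) and 0.59 for Igfbp7 (0.0038), the last with all SMC libraries higher and all PDGFR-β+ libraries lower with siKlf4. The fall of Klf4 itself was smaller in SMCs, by 1.19 (adjusted p 0.00069). The part of this in the other differences was not tested.

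The next genes are those set beside members and the list genes named by the rule. Among them the change was the more positive in SMCs for Wisp2 (2.30, adjusted p 0.00052), Adam12 (1.93, 2.24e-06), Wisp1 (1.71, 0.0031), Ctgf (1.52, 0.00222), Esm1 (1.18, 0.0139), Cyr61 (1.17, 0.0003), Shc1 (1.16, 3.35e-06), Pappa (0.70, 0.019) and Pik3cb (0.47, 0.0408, lost in 11 of 20 alternatives). The change was also the more positive in SMCs for Pik3r2 (0.53, adjusted p 0.00163) and Pdpk1 (0.50, 0.0102), chosen after their values were seen. It was the more positive in PDGFR-β+ cells for Cdkn1c (-2.36, adjusted p 6.87e-05), Plagl1 (-1.47, 0.00317), Grb14 (-1.10, 0.00034), Meg3 (-0.96, 0.00237), Irs2 (-0.94, 0.000125), Pik3r1 (-0.91, 0.00752), Pappa2 (-0.82, 0.0202; lost in 3 of 19), Gab1 (-0.77, 0.00203), Irs1 (-0.76, 0.00043), Foxo1 (-0.72, 0.00247), Peg3 (-0.68, 0.0035) and Igf2bp3 (-0.35, 0.044; lost in 14 of 20).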

How the results depend on the processing

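Leaving out 1 library at a time, genes called in SMCs numbered 2216 to 3563 against 3910 (2216 without siKlf4 library 2, 2342 without siKlf4 library 3, 2539 without Scr library 2) and members called 5 to 7 against 8 (5 without Scr library 3 or siKlf4 library 2). A term for how the SMC columns are named raised them to 5492 genes and 9 members, and a single fit of 12 libraries to 4568 genes with 8 members. Median-ratio scaling called 5 members in the difference between cell types against 3. Signs that changed belonged to values with no call: leave-outs gave -0.41 to 0.60 for Igf2 in SMCs, -0.0532 to 0.0245 for Igf1r in PDGFR-β+ cells and -0.31 to 0.18 for the Igfbp5 difference, which was 0.28 with a pseudocount of 0.1, 0.0242 with median-ratio scaling and 0.0217 with quantile normalization. With a replicate block, 2853 genes and 7 members were called in SMCs (4 numbered libraries), 5641 and 6 in PDGFR-β+ cells and 3882 and 4 in the difference, Igf1r in SMCs leaving (adjusted p 0.0904) and Igfbp6 joining (0.049); deviations of same-numbered PDGFR-β+ libraries correlated at -0.016 to 0.0732, so pairing by number was not taken there. Over all 6 SMC libraries the correlation was 0.361 between both unnumbered libraries, which deviated together. It was 0.185 for number 2 and 0.199 for number 3. Deviations are taken from the group mean, so these values depend on each other. With the numbered SMC libraries alone the correlation was 0.107 for each number. The unnumbered ones carry no number to pair by, and with the naming term the SE of Igfbp5 in SMCs went from 0.272 to 0.0725. The calls for Igfbp3 to Igfbp6 in both cell types, Igfbp2 in PDGFR-β+ cells and Igf1 in SMCs held in every alternative that could be computed; Igfbp5 had no value in PDGFR-β+ cells under a minimum of 5 TPM. The cause of the changes was not tested. Of 464 single-gene values, 411 kept direction and call, 27 lost and 13 gained it, and 13 changed sign. TPM holds no depth.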
